A study of Homo sapiens with 2 samples.

Results

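The RAB GTPase genes and the genes of the RAB prenylation machinery were examined in PANC-1 cells, a line established from a human pancreatic ductal adenocarcinoma. The set was defined by symbol from RefSeq genes annotated on GRCh38.p14, as protein-coding genes on chromosomes 1 to 22 and X named RAB or RABL with a number, together with RABGGTA, RABGGTB, CHM and CHML. It held 72 of 19974 protein-coding genes, and genes named for RAB interactors or effectors were not members. The measurement was ChIPmentation, chromatin immunoprecipitation in which Tn5 transposase inserts the sequencing adapters on immobilised chromatin. The 2 groups were PANC-1 cells given inflachromene, a small molecule that binds HMGB1 and HMGB2, DNA-bending proteins of the high-mobility group, and the same cells given DMSO, its solvent. Both were crosslinked with 15 mM EGS for 30 min and 1% formaldehyde for 10 min, and each was represented by 1 sample and 1 list of called peaks. The target of the antibody, the inflachromene dose and the length of treatment were not given in the sources used here. A peak is therefore described as a place where immunoprecipitated fragments piled up, and nothing is said about gene expression.

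RAB proteins are small GTPases that switch between a GTP-bound form on a membrane and a GDP-bound form that can be withdrawn into the cytosol. Each marks particular compartments of the secretory and endocytic pathways and recruits the motors, tethers and fusion factors that act there. They hold to membranes through geranylgeranyl groups, which the RAB-specific prenyl transferase, a dimer of RABGGTA and RABGGTB, attaches to RAB proteins presented by a RAB escort protein, encoded by CHM or CHML. In epithelial cells such as those of the pancreatic duct, RAB proteins direct apical and basolateral delivery, receptor recycling and regulated secretion.

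The sequences before 8 members' starts are shown because their motif matches and summit positions are described below. Whether a peak depends on these sequences was not tested. They come from RefSeq, GRCh38.p14, are written 5′ to 3′ on the gene's strand, and end at the base before the annotated start. Each is the part of the 250 bases before the start of the RefSeq promoter entry that lies outside all annotated coding genes, RABGGTB's own included. At RABGGTB the entry's start is 62 bp inside the gene table's, which leaves 188 bases. In all stretches capitals mark matches to any of 13 short motifs, which are spelled out with the promoter windows. RABGGTB held the strongest peak of the set by mean pileup over both libraries, and its stretch (chr1:75786006-75786193, plus strand) had no match to any of them in those 188 bases. CHML, an escort protein gene with a peak, had 6 GGGCGG sites (chr1:241640370-241640619, minus strand). CHM, the other escort protein gene, had no peak and a stretch with no GGGCGG site (chrX:86047559-86047808, minus strand).
RABGGTB: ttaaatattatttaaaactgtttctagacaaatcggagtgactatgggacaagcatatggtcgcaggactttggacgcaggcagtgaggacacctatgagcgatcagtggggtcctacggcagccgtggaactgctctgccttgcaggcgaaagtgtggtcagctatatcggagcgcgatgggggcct
CHML: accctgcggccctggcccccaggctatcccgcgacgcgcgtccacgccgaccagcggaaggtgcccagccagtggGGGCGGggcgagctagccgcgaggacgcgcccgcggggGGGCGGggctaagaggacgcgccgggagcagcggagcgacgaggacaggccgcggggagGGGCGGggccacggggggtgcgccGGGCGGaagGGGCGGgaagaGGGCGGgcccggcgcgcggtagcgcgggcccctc
CHM: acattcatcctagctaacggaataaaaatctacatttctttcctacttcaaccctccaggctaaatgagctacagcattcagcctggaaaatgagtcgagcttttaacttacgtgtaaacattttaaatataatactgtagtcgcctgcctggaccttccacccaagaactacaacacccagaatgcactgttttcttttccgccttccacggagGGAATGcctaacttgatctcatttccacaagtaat
RAB22A, with one of the lowest ratios between libraries, had a tandem array (chr20:58309465-58309714, plus strand). RAB5A, the strongest member in the inflachromene library, is shown for chr3:19946984-19947096 (plus strand), and RAB7A for chr3:128725933-128726182 (plus strand).
RAB22A: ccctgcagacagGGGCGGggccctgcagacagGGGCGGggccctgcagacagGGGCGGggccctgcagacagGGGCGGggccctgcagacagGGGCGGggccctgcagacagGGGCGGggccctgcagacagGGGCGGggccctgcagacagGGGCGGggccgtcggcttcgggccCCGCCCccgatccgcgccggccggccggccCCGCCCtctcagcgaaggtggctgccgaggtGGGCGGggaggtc
RAB5A: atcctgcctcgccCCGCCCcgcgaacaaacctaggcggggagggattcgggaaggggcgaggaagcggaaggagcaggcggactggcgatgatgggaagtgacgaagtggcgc
RAB7A: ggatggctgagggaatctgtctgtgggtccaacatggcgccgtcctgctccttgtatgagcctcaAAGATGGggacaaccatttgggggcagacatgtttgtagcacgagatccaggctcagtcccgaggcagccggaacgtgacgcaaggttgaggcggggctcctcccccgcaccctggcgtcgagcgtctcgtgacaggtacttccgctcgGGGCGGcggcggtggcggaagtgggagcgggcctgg
RAB25 and RAB40A had no peak and are shown for chr1:156060910-156061159 (plus strand) and chrX:103519490-103519739 (minus strand).
RAB25: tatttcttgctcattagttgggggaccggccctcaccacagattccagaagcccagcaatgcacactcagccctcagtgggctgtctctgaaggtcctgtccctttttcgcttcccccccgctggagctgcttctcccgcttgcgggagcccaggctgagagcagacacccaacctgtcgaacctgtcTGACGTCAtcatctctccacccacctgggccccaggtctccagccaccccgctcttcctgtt
RAB40A: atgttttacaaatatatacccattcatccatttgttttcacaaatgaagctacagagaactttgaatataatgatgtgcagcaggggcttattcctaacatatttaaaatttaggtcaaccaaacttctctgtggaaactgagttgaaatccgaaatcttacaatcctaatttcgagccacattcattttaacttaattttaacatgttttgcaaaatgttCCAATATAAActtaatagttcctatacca

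Depth was read from the peak lists alone. On the chromosomes used there were 10836 inflachromene peaks and 15186 DMSO peaks, and the inflachromene library was inferred to hold 0.965 times as many fragments as the DMSO library. The pileup, the number of fragments over a summit, had a median of 23 in each list. Of 8 genes marking pancreatic ductal epithelium, KRT8 and KRT18, which share a peak, and SOX9 had one in both lists, KRT19 and MUC1 had one in DMSO alone, and KRT7, EPCAM and CDH1 had none. None of 9 acinar and islet genes had a peak. Of 14 immune, fibroblast and endothelial genes, CD14 had a peak in inflachromene alone, CD68 in both (shared with EIF4A1) and PDGFRB in DMSO alone. Neither treatment was replicated and no test was made, so every difference below is between these libraries. Intervals are 95% intervals for counting error only. Those of pileups and ratios treat fragments as independent molecules. Fragments amplified by PCR without molecular identifiers are not, so these intervals may be too narrow. In a bulk culture, fewer cells with a signal and less signal per cell cannot be told apart.

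A gene was counted as having a peak where a summit, or the summit of the overlapping peak of the other list, lay within 1000 bp of either annotated gene end. Peaks in both lists were found at 38 members, in inflachromene alone at 1, in DMSO alone at 8, and in neither at 25. Thus 39 of 72 members (54.2%, exact binomial interval 42.0 to 66.0) had an inflachromene peak, against 38.2% of all protein-coding genes. A DMSO peak was present at 46 (63.9%, 51.7 to 74.9), against 45.8% of all genes. In at least 1 list a peak was present at 47 (65.3%), against 47.4%. Members therefore stood above the gene-wide share in both libraries, as did the lists of RAB regulators counted below. Of the 46 members with a DMSO peak, 8 (17.4%, 7.82 to 31.4) had no inflachromene peak, while 20.2% of all genes with a DMSO peak had none. Of the 39 with an inflachromene peak, 1 (2.56%) had no DMSO peak, against 4.16% of genes. The first of these shares had an interval that spans the gene-wide value.

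**Figure D1:**
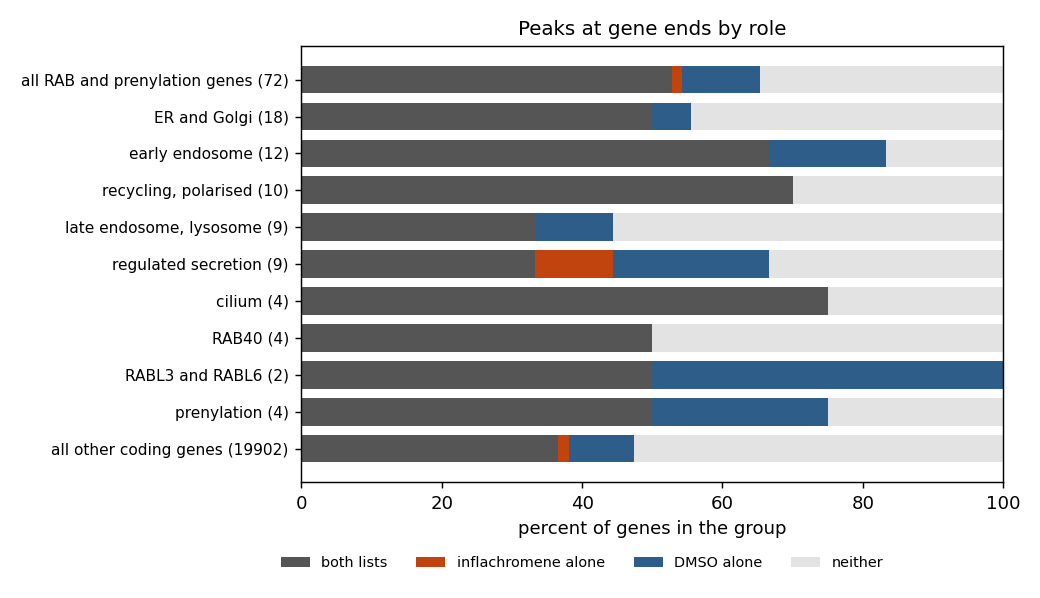
Share of genes (percent, horizontal axis) whose ends carried a peak in both lists, in inflachromene alone, in DMSO alone or in neither, for the 72 members, for 9 groups by role and for the 19902 other protein-coding genes; group sizes are in parentheses. Early endosome genes had a peak in at least 1 list at 10 of 12 members, and late endosome and lysosome genes at 4 of 9.

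The roles differed in how many of their genes carried a peak, as the plot of classes by role shows. Of 18 genes assigned to the endoplasmic reticulum and Golgi, 9 had one in both lists, 1 had a DMSO peak alone and 8 had none. Of 12 early endosome genes, 8 had one in both, 2 in DMSO alone and 2 in neither. The recycling and polarised delivery group had 7 of 10 in both and 3 in neither. Late endosome and lysosome genes had 3 of 9 in both, 1 in DMSO alone and 5 in neither. Regulated secretion genes had 3 of 9 in both, 1 in inflachromene alone, 2 in DMSO alone and 3 in neither. The groups are small: the interval for a DMSO peak was 51.6 to 97.9% in early endosome genes and 13.7 to 78.8% in late endosome and lysosome genes, and these overlap. Within several families of near relatives, 1 copy had a peak and another had none. RAB6A, a regulator of retrograde Golgi transport, had a peak in both lists, while RAB6B, RAB6C and RAB6D had none. RAB7A, which drives late endosome to lysosome fusion, had one in both and RAB7B had none. RAB11A and RAB11B of the recycling endosome had one in both, and their epithelial relative RAB25 had none. The other members without a peak at an end were RAB9B, RAB12, RAB15, RAB17, RAB19, RAB20, RAB27B, RAB29, RAB33A, RAB33B, RAB34, RAB37, RAB38, RAB40A, RAB40AL, RAB41, RAB42, RAB44, RABL2A and CHM.

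The prenylation genes held both the strongest peak of the set by mean pileup and a member with none. At RABGGTB, the catalytic beta subunit (gene ID 5876), the peak lay at chr1:75786025-75786390 in inflachromene and chr1:75786015-75786389 in DMSO, with the summit 25 bp before the annotated start in both. The pileup there was 91 fragments (Poisson interval 73.3 to 112) in inflachromene and 130 (109 to 154) in DMSO, a ratio of 0.70 (0.530 to 0.922). The authors' fold enrichment, the pileup relative to the local background with 1 added to each, was 22.6 in inflachromene and 30.6 in DMSO. By that measure RABGGTB ranked 4 among the 7621 genes with an inflachromene peak and 1 among the 9154 genes with a DMSO peak. By pileup alone it ranked 97 in inflachromene and 60 in DMSO. The summit also lay within 1000 bp of SNORD45C, a small nucleolar RNA gene, so it belongs to a position and not to RABGGTB alone.

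RABGGTA, the alpha subunit (gene ID 5875), had no inflachromene peak and a DMSO pileup of 20 fragments (12.2 to 30.9), with a fold enrichment of 8.55. Its DMSO peak, at chr14:24271400-24271694, was shared with an end of the neighbouring gene NOP9. The subunits of 1 enzyme thus differed in pileup and in class. At CHML, which encodes the escort protein REP2 (gene ID 1122), the summit held 16 fragments (9.15 to 26.0) in inflachromene and 29 (19.4 to 41.6) in DMSO, a ratio of 0.552 (0.280 to 1.05) whose interval includes 1. The CHML peaks, chr1:241640288-241640577 in inflachromene and chr1:241640321-241640657 in DMSO, also lay at an end of OPN3, an opsin gene. CHM, which encodes REP1 and is mutated in choroideremia, had no peak in either list. The nearest summits were 857329 bp away in inflachromene and 857310 bp in DMSO.

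The RABL genes, RAB-like GTPases, included the second strongest member by the same measure. RABL2B, a GTPase of intraflagellar transport, had 67 fragments (51.9 to 85.1) in inflachromene and 130 (109 to 154) in DMSO, a pileup ratio of 0.515 (0.378 to 0.697), the lowest among members with a mean pileup of 25 or more. By fold enrichment its ratio was 0.747, and RAB21 at 0.592 was lower. The Poisson intervals of the libraries did not overlap there. Its fold enrichment was 20.3 in inflachromene and 27.2 in DMSO, rank 13 of 7621 genes and rank 6 of 9154. The peaks were at chr22:50783501-50783900 in inflachromene and chr22:50783447-50783934 in DMSO. RABL2A, its near-identical copy on chromosome 2, had no peak, and the nearest summits were 113278 bp away in inflachromene and 113253 bp in DMSO. RABL3 had 38 fragments in inflachromene and 43 in DMSO, ratio 0.884 (0.556 to 1.40), at a peak shared with GTF2E1, a subunit of general transcription factor TFIIE. RABL6 had a peak in DMSO alone, with 13 fragments (6.92 to 22.2), shared with CCDC183.

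The RABL2 pair shows how far the sequences allow a placement. The 250 bases before their starts were identical at 247 positions (98.8%) and are printed with the 3 differing bases in capitals, RABL2B from chr22:50783637-50783886 (minus strand) and RABL2A from chr2:113627016-113627265 (plus strand).
RABL2B: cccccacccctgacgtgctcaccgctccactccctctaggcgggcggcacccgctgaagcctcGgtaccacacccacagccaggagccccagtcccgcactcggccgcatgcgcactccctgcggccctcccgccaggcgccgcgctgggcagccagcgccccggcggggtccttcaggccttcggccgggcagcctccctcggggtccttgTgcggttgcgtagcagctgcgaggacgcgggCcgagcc
RABL2A: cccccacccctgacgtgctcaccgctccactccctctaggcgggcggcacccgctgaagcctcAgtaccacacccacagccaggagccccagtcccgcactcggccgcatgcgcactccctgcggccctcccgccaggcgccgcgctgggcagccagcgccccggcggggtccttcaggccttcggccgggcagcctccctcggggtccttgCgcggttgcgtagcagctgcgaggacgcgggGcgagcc
Counted from 1 at the first printed base, with the RABL2B base first, the differences were G64A, T213C and C244G. The RABL2B summit lay at base 174 in inflachromene and base 175 in DMSO, between G64A and T213C, in a stretch that is identical in both copies. How reads that match several places were assigned was not given in the sources used here. The whole signal at RABL2B and its absence at RABL2A are uncertain for that reason.

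**Figure D2:**
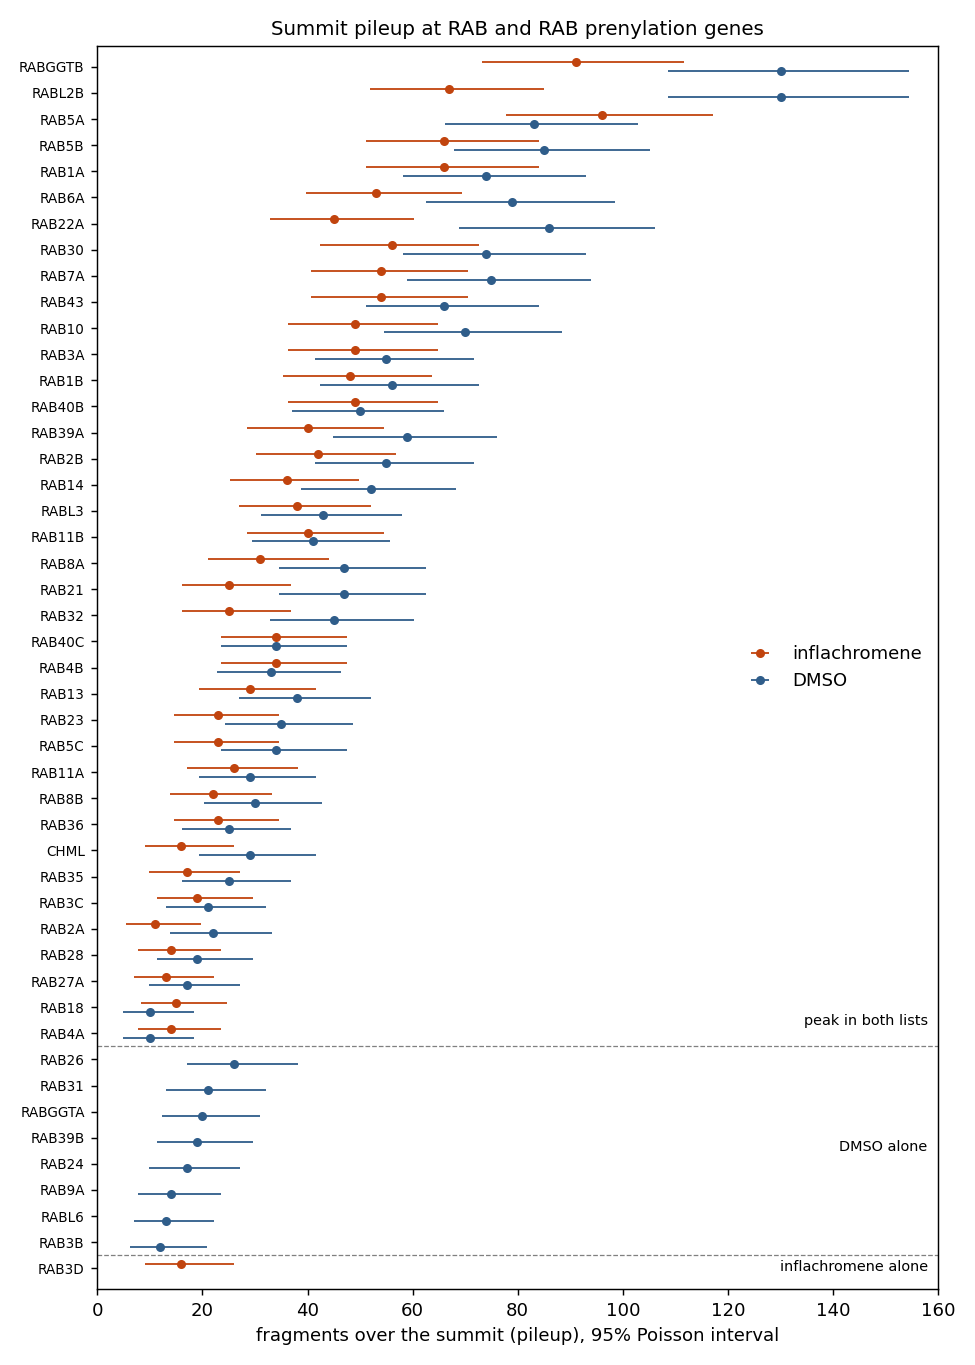
Fragments over the summit (horizontal axis, linear, with 95% Poisson intervals for counting error) at each of the 47 members with a peak, inflachromene in orange above DMSO in blue, ordered by mean pileup within each class. RABGGTB and RABL2B led in DMSO with 130 fragments each, RAB5A led in inflachromene with 96, and the members in 1 list alone held 12 to 26.

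Among genes of the endoplasmic reticulum and Golgi, the strongest were RAB1A, RAB6A and RAB30. RAB1A, required for transport from the endoplasmic reticulum to the Golgi, had 66 fragments (51.0 to 84.0) in inflachromene and 74 (58.1 to 92.9) in DMSO, ratio 0.892 (0.630 to 1.26). RAB6A had 53 (39.7 to 69.3) in inflachromene and 79 (62.5 to 98.5) in DMSO, ratio 0.671 (0.465 to 0.962), so its interval lay below 1. By fold enrichment the RAB6A ratio was 0.853. RAB30, a Golgi RAB, had 56 in inflachromene and 74 in DMSO, ratio 0.757 (0.525 to 1.09). RAB43, also of the Golgi, had 54 in inflachromene and 66 in DMSO, ratio 0.818 (0.560 to 1.19). Intervals of the last 2 included 1. The median ratio over the 9 genes of this role with both peaks was 0.764, with a range of 0.5 at RAB2A (11 in inflachromene and 22 in DMSO) to 1.5 at RAB18 (15 in inflachromene and 10 in DMSO). RAB18 marks lipid droplets and the endoplasmic reticulum, and its interval of 0.630 to 3.73 shows how little so few fragments fix. RAB1B had 48 in inflachromene and 56 in DMSO at a peak shared with KLC2. RAB2B had 42 in inflachromene and 55 in DMSO at a peak shared with TOX4, and RAB39A had 40 in inflachromene and 59 in DMSO. RAB39B, whose loss causes X-linked intellectual disability with parkinsonism, had a peak in DMSO alone with 19 fragments (11.4 to 29.7).

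The early endosome genes had both the highest and some of the lowest pileup ratios of strong members. RAB5A, which organises fusion of early endosomes, had 96 fragments (77.8 to 117) in inflachromene and 83 (66.1 to 103) in DMSO. Its pileup ratio of 1.16 (0.853 to 1.57) was the highest among members with a mean pileup of 25 or more, with an interval that includes 1. By fold enrichment its ratio was 1.02, and RAB40B at 1.12 and RAB40C at 1.07 were higher. By pileup RAB5A ranked 81 of 7621 genes in inflachromene and 270 of 9154 in DMSO. Its relative RAB5B had 66 in inflachromene and 85 in DMSO, ratio 0.776 (0.554 to 1.08), and RAB5C had 23 in inflachromene and 34 in DMSO, ratio 0.676 (0.380 to 1.18). The 3 RAB5 genes thus lay on different sides of 1, with overlapping intervals. The RAB5A peak was shared with EFHB. RAB5B had 2 peaks in each list, and between them these were shared with CDK2 and SUOX.

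RAB22A, which acts in endosomal sorting, had 45 fragments (32.8 to 60.2) in inflachromene and 86 (68.8 to 106) in DMSO, ratio 0.523 (0.356 to 0.759). The library intervals did not overlap. RAB21, an endosomal regulator of integrin traffic, had 25 (16.2 to 36.9) in inflachromene and 47 (34.5 to 62.5) in DMSO, ratio 0.532 (0.314 to 0.882). At the other end stood RAB4B, of fast recycling, with 34 in inflachromene and 33 in DMSO, ratio 1.03 (0.619 to 1.72), at a peak shared with MIA. RAB4A had 14 in inflachromene and 10 in DMSO, ratio 1.40 (0.578 to 3.52). RAB14, which links the Golgi with endosomes, had 36 in inflachromene and 52 in DMSO at a peak shared with GSN. Over the 8 early endosome genes with both peaks the median ratio was 0.734. Of these, 5 (62.5%) were lower in inflachromene, against 77.4% of all genes with both peaks. RAB24, linked to autophagy, and RAB31, of traffic from the trans-Golgi network to endosomes, had DMSO peaks alone with 17 and 21 fragments, the first shared with PRELID1.

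All 7 recycling and polarised delivery genes with a peak had it in both lists. All 7 pileups were lower in inflachromene, against 77.4% of all genes with both peaks. The median ratio of the 7 was 0.733, against 0.821 over those genes. RAB10, which moves glucose transporter vesicles to the surface, led with 49 fragments in inflachromene and 70 in DMSO, ratio 0.70 (0.476 to 1.02). RAB11B was the closest to equality, with 40 in inflachromene and 41 in DMSO, ratio 0.976 (0.615 to 1.55). By the authors' fold enrichment its ratio was 1.02, so its side of 1 turned with the measure. RAB8A and RAB8B, of exocytosis and ciliary membrane delivery, had 31 and 22 fragments in inflachromene against 47 and 30 in DMSO. RAB13, of tight junctions, had 29 in inflachromene and 38 in DMSO at a peak shared with RPS27. RAB11A had 26 in inflachromene and 29 in DMSO, and RAB35 had 17 in inflachromene and 25 in DMSO. The RAB11A summit in DMSO also lay within 1000 bp of TRQ-CTG1-4, a tRNA gene. None of these 7 intervals lay wholly below 1.

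In the late endosome and lysosome group, RAB7A had 54 fragments (40.6 to 70.5) in inflachromene and 75 (59.0 to 94.0) in DMSO, ratio 0.72 (0.498 to 1.04). RAB32, of melanosome and lysosome-related organelle formation, had 25 (16.2 to 36.9) in inflachromene and 45 (32.8 to 60.2) in DMSO, ratio 0.556 (0.326 to 0.926). RAB36 had 23 in inflachromene and 25 in DMSO. RAB9A, which returns mannose 6-phosphate receptors to the Golgi, had a DMSO peak alone with 14 fragments (7.65 to 23.5). RAB38, the close relative of RAB32, had no peak, nor did RAB29.

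Regulated secretion was the group with the most members in 1 list alone. RAB3D, found on secretory granules of exocrine cells, was the single member with a peak in inflachromene alone, at chr19:11339476-11339777 with 16 fragments (9.15 to 26.0) and a fold enrichment of 6.30. RAB3A, of synaptic vesicles, had 49 in inflachromene and 55 in DMSO, and RAB3C had 19 in inflachromene and 21 in DMSO. RAB3B had a DMSO peak alone with 12 fragments (6.20 to 21.0), and so did RAB26, of secretory granules, with 26 (17.0 to 38.1). The 4 RAB3 genes thus fell in 3 classes. RAB27A, which docks secretory lysosomes, had 13 in inflachromene and 17 in DMSO at a peak shared with PIGB and PIGBOS1. Of the cilium genes, RAB23, a negative regulator of Hedgehog signalling, had 23 in inflachromene and 35 in DMSO at a peak shared with PRIM2. RAB28 had 14 in inflachromene and 19 in DMSO. RAB40B and RAB40C, whose SOCS boxes join them to ubiquitin ligases, had 49 and 34 fragments in inflachromene against 50 and 34 in DMSO. Their pileup ratios were 0.98 (0.647 to 1.48) and 1.00 (0.603 to 1.66), and their fold enrichment ratios 1.12 and 1.07. RAB40A and RAB40AL had no peak.

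At 33 of the 38 members with a peak in both lists (86.8%), the pileup was lower in inflachromene, against 77.4% of the 7304 genes with both peaks. It was higher at 4, RAB18, RAB4A, RAB5A and RAB4B (18.2% of genes), and equal at RAB40C. The median ratio was 0.760 over members, with a range of 0.5 to 1.5, and 0.821 over all such genes. The ratio of fragment numbers, 0.965, was above each of these medians. That ratio leaves out fragment length, implied to be 165.7 bp in inflachromene and 152.4 bp in DMSO. With length included, the lowest background was 0.683 in inflachromene and 0.651 in DMSO. The members had a median pileup of 35 in inflachromene and 46 in DMSO, and all genes had 26 in inflachromene and 32 in DMSO. In 3 bands of mean pileup, below 25, 25 to 50, and 50 or more, the members' median ratio was 0.765 (9 genes), 0.748 (16) and 0.757 (13). All genes had 0.846, 0.808 and 0.807 in the same bands. By fold enrichment, 31 of 38 members were lower in inflachromene (81.6%, against 78% of genes), with a median ratio of 0.798 over members and 0.859 over genes. The background under the same summits had a median ratio of 0.934 over members and 0.949 over genes.

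The counting interval of the ratio lay wholly below 1 at 6 of the 38 members (15.8%), RABL2B, RAB22A, RAB21, RAB32, RAB6A and RABGGTB, against 8.52% of genes. It lay wholly above 1 at 0 members, against 0.137% of genes. Set against the ratio of fragment numbers, the intervals of the same number of members, 6, lay wholly below it (6.16% of genes) and 0 above it (0.164% of genes). The members were stronger than genes in general, and strong summits have narrower intervals. These 6 belong to 5 roles: RAB21 and RAB22A are early endosomal, and the others come from the Golgi, lysosome-related organelles, the cilium and prenylation. In the order named first, their fold enrichment ratios were 0.747, 0.704, 0.592, 0.710, 0.853 and 0.740, against a median of 0.859 over genes. Their background ratios were 0.615, 0.668, 0.870, 0.702, 0.739 and 0.934, so the size of the drop depends on the measure.

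**Figure D3:**
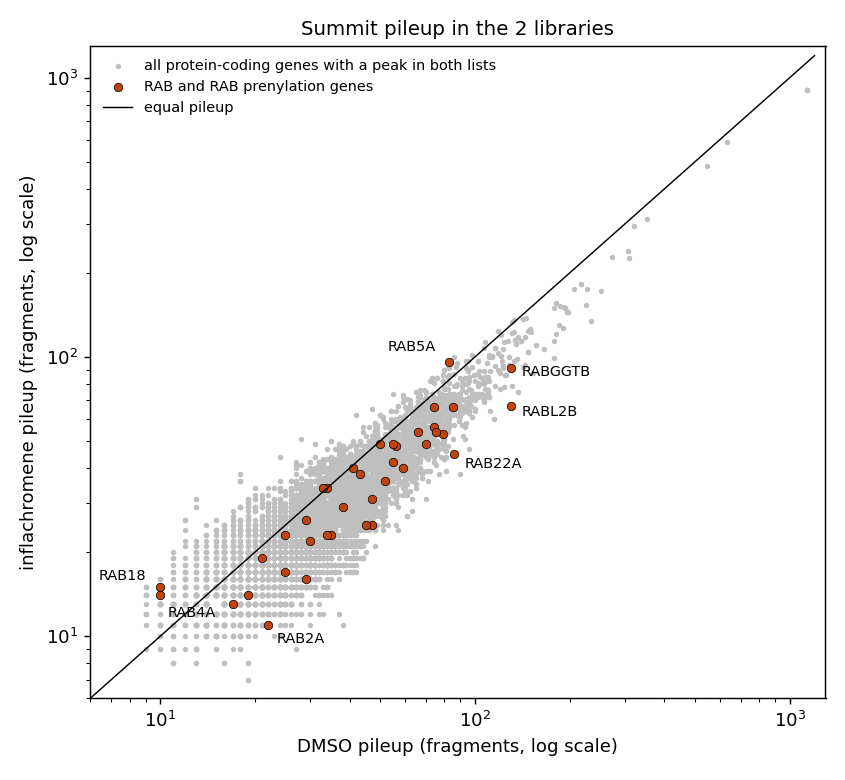
Pileup at the summit in the inflachromene library (vertical axis, fragments, log scale) against the DMSO library (horizontal axis, fragments, log scale), for the 38 members in orange and all 7304 protein-coding genes with a peak in both lists in grey; the line marks equal pileup. RABGGTB, RABL2B and RAB22A lie below the line and RAB5A above it.

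The members in DMSO alone were weak ones of the DMSO list. Their pileups ran from 12 to 26 fragments with a median of 18, and their fold enrichments from 4.54 to 8.71, while the members in both lists had a median DMSO fold enrichment of 12.9. Genes with a DMSO peak were divided into 3 groups of nearly equal size by that fold enrichment. In the weakest group, under 7.90, 5 of 8 members had no inflachromene peak, against 45.6% of genes. In the middle group it was 3 of 14, against 426 of 3051 genes. In the strongest, from 11.1, it was 0 of 24, against 1.08% of genes. The highest fold enrichments among the 8 were 8.71 at RAB39B, 8.59 at RAB9A and 8.55 at RABGGTA.

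The deposited threshold limits what absence from a list means. At the DMSO summit's background, a summit needed 14 fragments at RAB24, 18 at RAB26, 14 at RAB31, and 9 each at RAB3B and RABL6 to be called in the inflachromene list. A pileup just short of that lies inside the Poisson interval of the DMSO summit at these 5 genes. Absence from the inflachromene list therefore does not by itself establish a difference between libraries there. The lists hold peaks only, so the inflachromene pileup at these genes is unknown. At RAB39B, RAB9A and RABGGTA the numbers needed were 9, 7 and 10, and a pileup just short of them lies below the DMSO interval. That comparison leaves out the counting error of the inflachromene pileup, which is unknown. It therefore does not establish a difference between libraries at these genes either. RAB3D had 16 fragments in inflachromene and needed 11 in DMSO, and 10 lies inside its interval.

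Summits sat at gene starts. RefSeq promoter entries, which give the strand, were found for 59 of the 72 members. No entry was matched for RAB1A, RAB2A, RAB12, RAB15, RAB20, RAB26, RAB33A, RAB33B, RAB36, RAB37, RAB38, RAB39B and RAB44. All 36 inflachromene summits and all 41 DMSO summits at these genes were nearer the start than the 3′ end, against 95.6% and 95.4% over all genes. Within 200 bp of the start lay 32 of 36 (88.9%) in inflachromene and 36 of 41 (87.8%) in DMSO, against 71.9% and 71.8% over all genes. Most were upstream, 27 of 36 in inflachromene and 30 of 41 in DMSO, against 4841 of 6484 and 5681 of 7706 over all genes. The members' medians were 79.5 bp before the start in inflachromene and 76 bp in DMSO. Beyond 200 bp upstream lay RAB8A, at 291 bp before the start in inflachromene and 212 bp in DMSO, and RAB11B in DMSO alone, at 205 bp. Beyond it inside the gene, the RAB3C summit was 812 bp into the gene in inflachromene and 925 bp in DMSO, RAB10 had 592 bp in inflachromene and 723 bp in DMSO, and RAB40C had 481 bp in inflachromene and 565 bp in DMSO. These distances run from the outermost start of the gene table, and the promoter entry gives another start at 6 of the 59 members, 5 of them with a peak. From the entry's start, the RAB3C summit lay 111 bp before it in inflachromene and 2 bp after it in DMSO. RAB10 lay 207 bp before it in inflachromene and 76 bp before it in DMSO, so the placement of both inside the gene depends on the start used. By the entry's start, 32 of 36 inflachromene summits and 37 of 41 DMSO summits lay within 200 bp. At the 38 members with both peaks, the summits of the libraries were a median of 38 bp apart, and at most 162 bp. The median over all genes with both peaks was 37 bp.

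**Figure D4:**
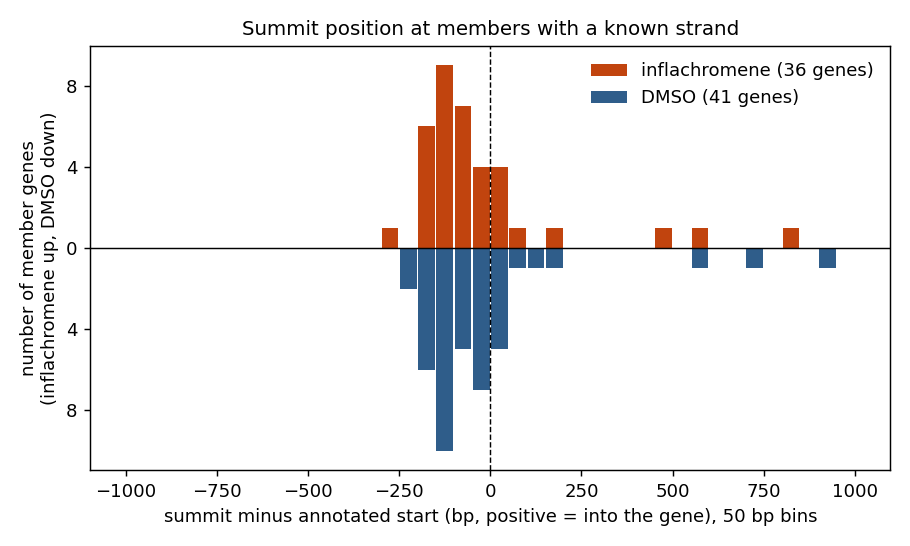
Number of members (vertical axis, inflachromene upward and DMSO downward) by the distance of the summit of the strongest peak from the annotated start (horizontal axis, bp, 50 bp bins, positive into the gene), for the members with a known strand, 36 in inflachromene and 41 in DMSO. Most summits lie within 200 bp of the start, more of them before it than after it.

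RAB3C and RAB10 were the members with summits nearest the inside of the 1000 bp window. RAB37 and RAB34 stood nearest outside it. The RAB37 summit was 1198 bp from an end in inflachromene, with 29 fragments, and 1216 bp in DMSO, with 47. At RAB34 it was 1500 bp with 37 fragments in inflachromene and 1481 bp with 39 in DMSO. Beyond the windows, 8 inflachromene peaks lay inside 6 members and 10 DMSO peaks inside 8 members. Among the 25 members without a peak at an end, RAB33B, of Golgi and autophagy, and its relative RAB33A had internal peaks in both lists. The strongest at RAB33B held 18 fragments in inflachromene and 32 in DMSO, at RAB33A 27 in inflachromene and 37 in DMSO. RAB27B had 1 internal peak in DMSO alone, with 9 fragments. Of the 47 members with a peak at an end, 14 shared it with an end of another protein-coding gene, as did 3116 of 9471 genes in all.

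The promoter windows, 250 bases before to 50 after the RefSeq start, were compared between members with and without a peak. Their CpG content was expressed as the number of CpG dinucleotides observed over the number that the C and G content predicts. The median of this ratio was 0.843 in 42 members with a peak and 0.574 in 17 without, and over all genes 0.862 with a peak and 0.463 without. Of the members at 0.6 or more, 39 of 47 (83.0%) had a peak, 34 in inflachromene and 38 in DMSO, against 68.3% of all such genes. Of the members below 0.6, 3 of 12 (25%) had one, RAB13, RABL3 and RAB3B, against 15.9% of genes. At RAB13 the entry's start is 4369 bp from the gene table's, so its window does not hold its peak, and without it 2 of 11 had one. At 0.6 or more the members' share was above that of all genes. Below 0.6 the members were too few to set their share apart from that of all genes. G+C content had a median of 68.3% in members with a peak and 55% in members without. RABGGTB, at 54%, was close to the median of members without a peak despite its rank, while RAB22A had 80.3%, CHML 79.3%, CHM 43.3% and RAB40A 31.7%. CHM had a CpG ratio of 0.762 and no peak, and RAB25 had 0.363 and no peak.

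**Figure D5:**
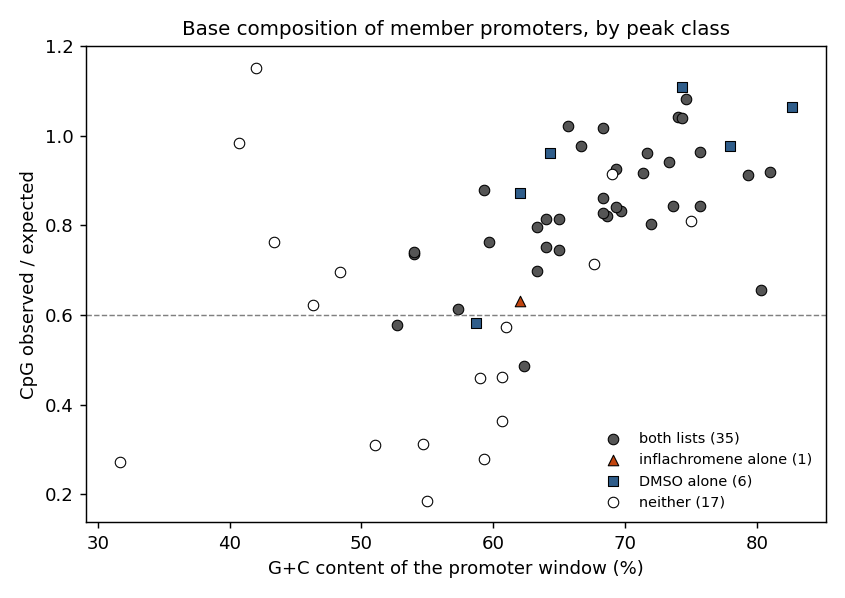
CpG observed over expected (vertical axis, ratio) against G+C content (horizontal axis, percent) of the 300 base promoter window, 1 symbol for each of the 59 members with a RefSeq entry, by peak class; the dashed line marks 0.6. Of the symbols at or above the line 39 of 47 had a peak, and below it 3 of 12.

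The 13 motifs were searched on both strands of these windows. GGGCGG, the core bound by SP and KLF factors, was in 43 of 59 member promoters (72.9%) and 58.5% of all promoters, and in 35 of the 42 with a peak (83.3%) and 8 of the 17 without (47.1%). Over all genes the same split was 73.9% with a peak and 42.8% without. CCAAT (NF-Y) was in 14 (23.7%), against 36.3% of all. AAGATGG (YY1) was in 10 (16.9%), against 6.40%, and GCATGCG (NRF1) in 6 (10.2%), against 5.14%. The ETS core CCGGAAG was in 11 (18.6%, against 14.2%) and GGAATG (TEAD) in 7 (11.9%, against 11.7%). CACGTG (E-box) was in 6 (10.2%, against 8.87%), and TCACGTG (TFEB and TFE3), which contains it, in 5 (8.47%, against 4.79%). TGACGTC (CREB and ATF), TGACTCA (AP-1) and ACGTGGC (the Golgi stress element, which can overlap CACGTG) were in 3 each (5.08%), against 4.59%, 3.67% and 3.80%. TATAAA was in 4 (6.78%, against 9.64%), all of them among the members without a peak, and over all genes in 4.88% with a peak and 14.5% without. TTTGGCG (E2F) was in 1 (1.69%, against 2.42%). A match is a description of letters, and none was tested as a site.

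In the printed stretches, RABGGTB had no match to any of the 13, with both summits at base 164 of 188. CHML's 6 GGGCGG sites all lay on the gene's strand. RAB22A had the densest array: 8 of its GGGCGG sites on the gene's strand followed one another at 20 bp, from base 13 to base 153. Its summits fell inside the array, at base 68 in inflachromene and base 65 in DMSO. The array repeats a unit, so the placement of fragments within it depends on how reads matching several places were treated, and the number of units carried by PANC-1 was not determined here. RAB7A's AAGATGG and GGGCGG matches began at bases 66 and 215, on either side of the summits at base 146 in inflachromene and base 144 in DMSO. RAB5A's summits lay at base 62 in inflachromene and base 91 in DMSO of its 113 bases, away from its single match at base 14. RAB25's TGACGTC is palindromic with the following base and was found on both strands, and RAB40A's CCAAT and TATAAA overlap by 1 base.

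The proteins that regulate RAB cycling were counted beside the members. Of 44 RAB guanine nucleotide exchange factor genes, 29 had peaks in both lists, 8 had a DMSO peak alone and 7 had none, with a median ratio of 0.783. SBF2 had 70 fragments in inflachromene and 100 in DMSO, at a peak shared with ADM, and DENND4A had 56 in inflachromene and 59 in DMSO. Of 37 TBC-type GTPase activating protein genes, 21 had a peak in both, 2 in inflachromene alone and 7 in DMSO alone, with a median ratio of 0.875. TBC1D10B had 64 in inflachromene and 69 in DMSO, and TBC1D23 had 49 in inflachromene and 78 in DMSO. Of 38 effector genes, 20 had a peak in both, 1 in inflachromene alone and 5 in DMSO alone, at a median ratio of 0.827. GOLGA5, a golgin, had 135 in inflachromene and 233 in DMSO, and MICALL2 had 64 in inflachromene and 79 in DMSO. Of 11 genes for GDP dissociation inhibitors and other prenylation enzymes, 6 had a peak in both and 2 in DMSO alone. In that list FDPS, which makes farnesyl pyrophosphate, had 31 in inflachromene and 35 in DMSO. RCE1, the protease that trims prenylated proteins, had 21 in inflachromene and 34 in DMSO. The members' median of 0.760 was below each of these list medians, the last of which was 0.850. A DMSO peak was present at 84.1% of exchange factor, 75.7% of activating protein and 65.8% of effector genes. In the last list it was 72.7%, while members had 63.9% and all genes 45.8%. For an inflachromene peak the shares were 65.9%, 62.2%, 55.3% and 54.5% in the same order, while members had 54.2% and all genes 38.2%.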

How the data were processed

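Each sample was 1 deposited narrowPeak list. The build was hg38 and the tools named were deepTools 3.5.6 and MACS2, per the submitters' processing notes; the MACS2 version, aligner, duplicate handling and treatment of reads matching several places are not stated there. Each deposited row gave a fold enrichment (a ratio), a −log10 p-value and a −log10 q-value at the summit, all as the authors' caller wrote them. The deposited score column was not used. The lowest −log10 q was 3.01 in inflachromene and 3.02 in DMSO, so the cutoff appears to have been q = 0.001. Whether peaks were called on pooled samples is not stated.

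From the deposited fold and −log10 p, taken as MACS2 defines them, a whole-number pileup and its background were recovered for all 10836 inflachromene and 15186 DMSO peaks on chromosomes 1 to 22 and X (tolerance 0.001). The ratio of fragment numbers came from the lowest background, 0.683 in inflachromene and 0.651 in DMSO, over the implied fragment lengths of 165.7 bp in inflachromene and 152.4 bp in DMSO. The lists hold peaks only, so a pileup below the threshold is unknown.

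Peaks of the lists were matched by an overlap of at least 1 bp. The strongest peak of a gene gave its pileup. Pileups carry exact Poisson 95% intervals, shares Clopper-Pearson intervals and ratios exact conditional binomial intervals. No test was made, because each treatment had 1 sample. Every member was counted, and given values in full if it was a prenylation or RABL gene, had a peak in 1 list alone, was among the 10 with the highest mean pileup, or had one of the 4 lowest or 4 highest ratios at a mean pileup of 25 or more. Of related lists, the 2 genes of highest mean pileup were eligible to be named; other genes named from those lists or by class were chosen after their values were seen. The members and lists were chosen with earlier results of these data known. Python 3.11.15, numpy 2.4.6, scipy 1.17.1 and pandas 2.3.3 were used. Alternatives were other windows, thresholds, overlap rules and strength measures. The distances from the promoter entry's start and the CpG share without RAB13 were added after seeing the data.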

Additional observations from a re-analysis of the deposited data

How the results depend on the processing

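The alternatives were windows of 500 and 2500 bp, each list's own summits, peaks with −log10 q of 5 or more, both lists at the length of the shorter, a 50% reciprocal overlap, leaving out peaks at ends of several coding genes, annotated starts alone, fold enrichment, summed pileups, and division by the ratio of fragment numbers. Over these, the members' median ratio stayed between 0.733 and 0.798, and the median over all genes with both peaks between 0.806 and 0.859. The members with a peak in both lists numbered 27 to 41. With −log10 q of 5 or more, 2 members had a peak in inflachromene alone, RAB3D and RAB4A. With both lists at the length of the shorter, 3 members had one in inflachromene alone and 3 in DMSO alone (RAB39B, RAB9A and RABGGTA), and the share of DMSO members without an inflachromene peak was 7.69% (1.62 to 20.9). Without peaks at ends of several coding genes, 5 members were in DMSO alone and 39 in neither. At 2500 bp RAB26 had a peak in both lists, as did RAB34 and RAB37, and at 500 bp RAB10 and RAB3C had none. The ratios of RAB11B, RAB40B and RAB40C were 0.976, 0.98 and 1.00 by pileup and 1.02, 1.12 and 1.07 by fold enrichment. RABL2B had 0.515 by pileup and 0.747 by fold enrichment, with a background ratio of 0.615. No paired analysis was possible because each treatment had 1 sample. An absent peak gives no level.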

Other observations

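Small GTPase genes of other families were counted in the same way, as values outside the comparisons above. Of 27 ARF, ARL and SAR genes, which act in coat assembly and cilia, 14 had a peak in both lists, 3 in inflachromene alone, 4 in DMSO alone and 6 in neither, with a median pileup ratio of 0.840. SAR1A, which starts COPII coat assembly, had 58 fragments in inflachromene and 78 in DMSO, and ARL3, of ciliary cargo release, had 56 in inflachromene and 78 in DMSO.

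Of 28 RAS family genes, 11 had a peak in both, 1 in inflachromene alone, 3 in DMSO alone and 13 in neither, with a median ratio of 0.692. RAP2A had 64 fragments in inflachromene and 80 in DMSO. RRAS had 75 in inflachromene and 65 in DMSO, ratio 1.15 (0.817 to 1.63), at a peak shared with SCAF1. A DMSO peak was present at 66.7% of the ARF, ARL and SAR genes and at 50% of the RAS family genes. Members had 63.9% and all genes 45.8%. None of the differences between families was tested.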
